A study of Homo sapiens with 101 samples.

Results

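HT1080 cells given 10 µM curcumin (CUR) were compared with HT1080 cells given the vehicle alone (CUR_DMSO), and the comparison used 12 of the 101 samples of the series. The members were taken by sample title, 6 of 6 samples in each group, and the titles give only the code CUR, which is read here as curcumin. HT1080 is a human fibrosarcoma line grown from a connective tissue tumour, and every sample of both groups was this line in medium with serum. The series gave each of several compounds at 1 dose, picked for the same 1.5-fold rise in total p53 protein. Compounds came from stocks in DMSO and were added 24 h after the cells were seeded, with 0.1% vehicle in the medium, and the time of exposure is not given in the sources used here. Total RNA was labelled from its 3′ end and measured on Affymetrix arrays. The labels number the samples of each group from 1 to 6 and do not say that they were separate cultures, so the p-values measure only the spread between these samples, which may be technical.

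Curcumin is the yellow phenolic compound of turmeric, and part of it is an unsaturated ketone chain that can react with the thiol groups of proteins. One such protein is KEAP1, which holds the transcription factor NRF2 in the cytoplasm and hands it to the proteasome. When cysteines of KEAP1 are modified, NRF2 escapes, enters the nucleus and binds antioxidant response elements near genes for glutathione synthesis, quinone reduction, thioredoxin reduction and heme breakdown.

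The core of an antioxidant response element, TGACNNNGC, was searched on both strands in the 250 bases before the start of each gene, and 4 windows are printed because they belong to genes described next, chosen after their values were seen. Sequences are from RefSeq on GRCh38.p14, 5′ to 3′ on the gene's own strand, in lower case with matches to the motif in capitals. TXNRD1 lies on the plus strand (chr12:104215529-104215778), with the match starting 99 bases before the gene start in 1 of 2 windows of this gene. GCLM lies on the minus strand (chr1:93909431-93909680) with a match on the opposite strand, 34 bases before the start. AIFM2 lies on the minus strand (chr10:70132826-70133075) with a match on the opposite strand, 22 bases before the start. AKR1C1, on the plus strand (chr10:4963165-4963414), is shown for contrast, since these letters are not in this window.
TXNRD1: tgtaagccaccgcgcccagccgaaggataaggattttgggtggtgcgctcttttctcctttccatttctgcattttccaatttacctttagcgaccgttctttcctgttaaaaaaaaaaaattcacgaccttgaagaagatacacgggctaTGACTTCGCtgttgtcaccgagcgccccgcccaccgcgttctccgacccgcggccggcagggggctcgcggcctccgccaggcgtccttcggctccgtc
GCLM: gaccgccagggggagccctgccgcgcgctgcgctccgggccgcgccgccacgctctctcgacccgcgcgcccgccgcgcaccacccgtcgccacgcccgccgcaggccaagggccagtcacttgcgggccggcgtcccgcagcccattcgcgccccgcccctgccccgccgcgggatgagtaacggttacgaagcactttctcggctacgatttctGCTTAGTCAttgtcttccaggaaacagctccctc
AIFM2: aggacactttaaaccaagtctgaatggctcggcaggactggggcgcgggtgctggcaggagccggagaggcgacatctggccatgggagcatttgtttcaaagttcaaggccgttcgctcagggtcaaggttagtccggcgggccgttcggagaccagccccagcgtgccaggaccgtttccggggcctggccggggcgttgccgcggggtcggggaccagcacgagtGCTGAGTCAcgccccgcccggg
AKR1C1: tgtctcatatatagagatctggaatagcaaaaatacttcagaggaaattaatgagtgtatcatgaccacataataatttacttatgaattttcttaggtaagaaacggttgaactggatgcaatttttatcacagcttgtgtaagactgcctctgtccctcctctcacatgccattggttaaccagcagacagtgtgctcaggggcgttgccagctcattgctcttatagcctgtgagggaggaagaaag
The motif was in this window for 23 of the 112 genes called higher with curcumin that have a window in the table (20.5%), 7 of 77 called lower (9.1%), 1528 of 9494 genes tested (16.1%) and 3609 of all 27305 genes (13.2%). Of 22 members of the NRF2 list with a window it was in 6 (27.3%). Of the 11 with a window that were called higher it was in 2 (18.2%), GCLM and TXNRD1. A gene with several windows was counted when any of them held the motif. A match is a description of letters only.

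Values are the deposited log2 signals, so a difference of 1 is a doubling, and each difference is CUR minus CUR_DMSO ± its standard error from limma. The test for a change was limma's adjusted p under 0.05, taken over all 11496 genes tested, together with a difference of at least 1.5-fold, and genes that met both are named as called, higher or lower. A group mean under 4 was taken as not well above background, and a change against it is then given as a bound against 4. The 12 arrays had medians from 3.41 to 3.49 and upper quartiles from 6.21 to 6.57, and their number and the signal over background limit the precision. The libraries numbered 5 stood apart in both groups. CUR replicate 5 lay at a root mean square distance of 0.432 from the other CUR samples, against at most 0.273 for the others, and CUR_DMSO replicate 5 lay at 0.470, against at most 0.297. Samples of the same number deviated together (r from 0.292 to 0.684), so a fit with the replicate number as a block was also run. It is given for some genes and lists, and where it is not given it may differ. Of 10 mesenchymal markers 8 had a mean of at least 4 in both groups, with a summed signal of 84.3 to 85.9 in CUR samples and 85.5 to 87.0 in CUR_DMSO samples, and S100A4 was called lower (-0.66 ± 0.09, adjusted p = 0.0015). None of 7 epithelial, 5 endothelial or 5 hepatocyte markers reached 4 in either group. Among 6 leukocyte markers 1 reached 4 in CUR samples and 2 in CUR_DMSO samples, with summed signals of 17.8 to 18.4 and 18.5 to 19.7. In bulk RNA, fewer cells of a type and less RNA per cell cannot be told apart.

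Curcumin changed 253 of 11496 genes (2.20%), with 146 higher (1.27%) and 107 lower (0.931%). The largest rises were in AKR1C1, NMRAL2P and AKR1B10, and the largest falls were in LRRC17, SCG2 and VCAN. Changes were moderate: 34 of the higher genes and 24 of the lower genes passed 2-fold. All 6 CUR samples lay above all 6 CUR_DMSO samples for 79 of the genes called higher, where 2.50% of all tested genes did so, and below them for 47 of the genes called lower, where 1.36% did. Of the genes called higher 139 were higher in each of the 6 numbered pairs, and of those called lower 100 were lower in each. These genes were called on the same values, and the share over all genes was not counted, here or for pairs given below. Taking the replicate number as a block gave 448 calls (3.90%), of which 247 were higher (2.15%) and 201 lower (1.75%), and all 253 were among them. Quantile normalization gave 257 calls but split them as 105 higher and 152 lower. A group mean was under 4 for 19 of the genes called higher and 16 called lower, and both were for 3 and 6. Without both libraries numbered 5 there were 466 calls, 210 higher and 256 lower, and 229 of the 253 were among them. Without CUR replicate 5 alone there were 587 (313 higher and 274 lower), without CUR replicate 3 there were 155, and without CUR_DMSO replicate 4 there were 168. The shares of all genes set beside list counts below come from fits with no library left out and no block, unless said otherwise.

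**Figure D1:**
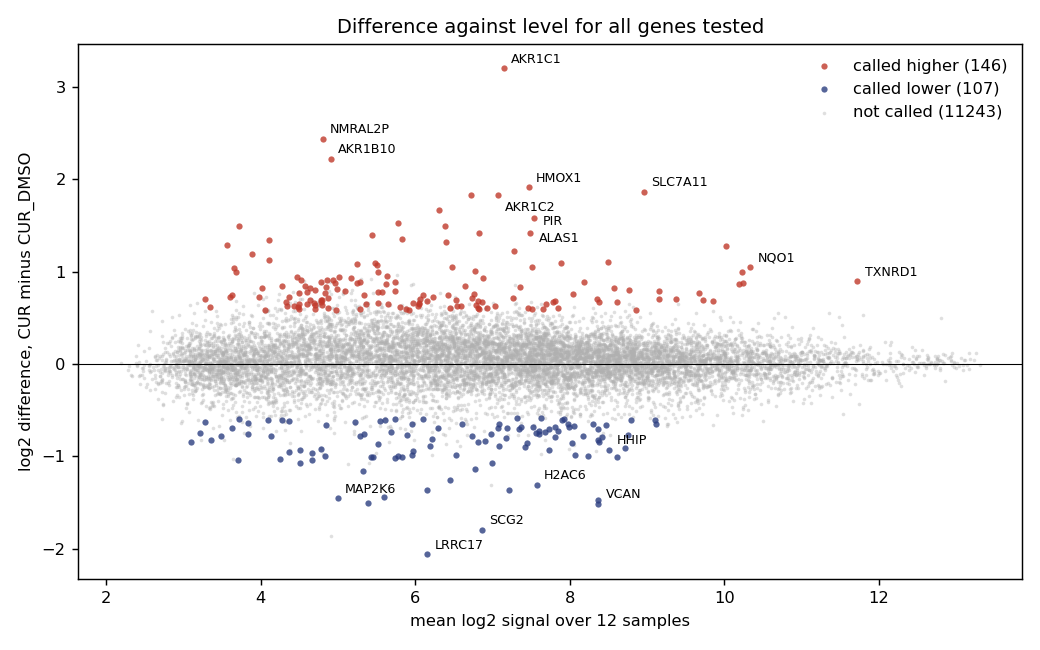
Each point is 1 of 11496 genes, with its mean log2 signal over the 12 samples on the x axis and its log2 difference, CUR minus CUR_DMSO, on the y axis. Red points are the 146 genes called higher and blue points the 107 called lower. AKR1C1 stands highest at 3.20 and LRRC17 lowest at -2.06 among the called genes.

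The NRF2 target list held more calls than any of the other lists examined, with 16 of 30 tested members called higher and 0 lower, where 1.27% and 0.931% of all genes were. By limma 25 members had an unadjusted p under 0.05 in the upward direction and 0 in the downward direction, where 1720 (15.0%) and 1046 (9.10%) of all 11496 genes did. The median difference over the 30 members was 0.69, against 0.04 over all genes tested. The count was 16 with the replicate block, 15 without both libraries numbered 5, 12 when a gene's probe sets were averaged and 14 to 16 when single libraries were left out.

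Among aldo-keto reductases, which reduce reactive aldehydes and ketones, AKR1C1 signals ran from 8.25 through a median of 8.78 to 9.06 in CUR samples, against 5.07 through 5.22 to 7.08 in CUR_DMSO samples. The groups did not overlap, and CUR_DMSO replicate 3 (7.08) stood above the other 5 control samples, which ended at 5.58. The difference was 3.20 ± 0.30, or 9.20-fold (adjusted p = 6.7e-05). AKR1C2 ran from 7.67 through 8.01 to 8.27 with curcumin and from 5.72 through 6.16 to 6.67 without it, a rise of 1.83 ± 0.15. AKR1C3 rose by 1.10 ± 0.11, with every CUR sample at 8.29 or more and every CUR_DMSO sample at 7.69 or less. These 3 enzymes are near-identical copies in sequence, so their probes may share signal, and the mean over the 5 AKR1C1 probe sets gave 1.07. AKR1B10, which clears retinal and lipid aldehydes, ran from 5.63 to 6.64 in CUR samples and from 3.31 to 4.47 in CUR_DMSO samples, whose mean of 3.79 was under 4, so the rise was at least 2.02 (adjusted p = 6.1e-05).

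HMOX1, which opens the heme ring, ran from 7.31 through 8.57 to 9.61 in CUR samples, against 5.75 through 6.64 to 7.08 in CUR_DMSO samples. The groups did not overlap and all 6 pairs were higher, by 1.47 to 2.62, with a difference of 1.91 ± 0.35 (adjusted p = 0.0080). BLVRB, which reduces flavins, rose by 1.05 ± 0.10 (adjusted p = 9.4e-05). ALAS1, the first and rate-limiting enzyme of heme synthesis, ran from 7.73 through 8.22 to 8.62 with curcumin and from 6.45 through 6.71 to 7.16 without, a rise of 1.42 ± 0.17. In the iron, heme and ferroptosis list 3 of 17 members were called higher and 0 lower, where 1.27% and 0.931% of all genes were. The 3 were ALAS1, AIFM2 and SLC3A2, and the median of the list was 0.22. SLC48A1, a heme carrier, was higher by 0.50 ± 0.10 (adjusted p = 0.015), under the fold minimum, and by 0.27 with the mean of its probe sets (adjusted p = 0.089). FTL, the light chain of the iron store ferritin, averaged 13.05 in CUR samples and 12.55 in CUR_DMSO samples, a difference of 0.50 ± 0.08 that was also under the minimum. The probe set of FTH1P5, a pseudogene of the ferritin heavy chain, rose by 0.87, and it cannot be told apart from its parent gene, which is not analysed here. FTH1P5 falls outside the naming rule and was picked after its value was seen. TFRC, the receptor that brings in iron, differed by 0.53 ± 0.20 (adjusted p = 0.13).

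In the list of glutathione and thioredoxin enzymes outside the NRF2 list 1 of 25 members was called higher and 0 lower, where 1.27% and 0.931% of all genes were. The called member was the superoxide dismutase SOD2, the median was 0.13, and 0 were called without both libraries numbered 5. The genes that follow, apart from AIFM2, are members of the NRF2 list. SLC7A11, the transporting chain of the cystine and glutamate exchanger xCT, ran from 9.42 through 9.80 to 10.36 in CUR samples and from 7.06 through 8.06 to 8.70 in CUR_DMSO samples. No CUR sample reached down to a control, and the rise was 1.87 ± 0.25 (adjusted p = 0.0016). GCLC, the catalytic subunit of glutamate-cysteine ligase, which makes the first bond of glutathione, rose by 0.68 ± 0.13 (adjusted p = 0.014). GSR, which returns oxidised glutathione to its reduced form, rose by 0.75 ± 0.11 (adjusted p = 0.0033). Without both libraries numbered 5 GCLC was at 0.57 (adjusted p = 0.013), just under the fold minimum, and it was at 0.46 with the mean of its probe sets, which ended the call. AIFM2, which reduces coenzyme Q at the plasma membrane and guards lipids from peroxidation, ran from 6.60 through 6.97 to 7.36 in CUR samples and from 5.33 through 6.04 to 6.20 in CUR_DMSO samples. Its rise was 1.05 ± 0.16 (adjusted p = 0.0040), and 0.62 with the mean of its 2 probe sets.

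NQO1, the quinone reductase often used as the readout of NRF2, ran from 10.67 to 11.01 in CUR samples and from 9.69 to 9.88 in CUR_DMSO samples. Its 6 pairs rose by 0.91 to 1.16, and the difference was 1.05 ± 0.08 (adjusted p = 1.8e-05). TXNRD1, the selenoenzyme that reduces thioredoxin, ran from 12.02 to 12.41 with curcumin and from 11.15 to 11.48 without, a rise of 0.90 ± 0.08. With the mean of its 2 probe sets TXNRD1 was at 0.48, which ended the call. SRXN1, which repairs over-oxidised peroxiredoxins, rose by 0.70 ± 0.14 (adjusted p = 0.014). TXN, the substrate of TXNRD1, differed by 0.20 ± 0.08 (adjusted p = 0.12) and PRDX1, a peroxiredoxin, by 0.24 ± 0.08 (adjusted p = 0.090), and neither was called.

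PIR, an iron-binding nuclear protein, ran from 8.03 through 8.32 to 8.72 in CUR samples and from 6.48 through 6.72 to 7.06 in CUR_DMSO samples. It rose by 1.58 ± 0.13 (adjusted p = 1.8e-05), with no overlap. TRIM16, a tripartite motif protein, rose by 1.11 ± 0.11, whereas TRIM16L, a shorter relative, stood at 5.67 in CUR samples and 5.76 in CUR_DMSO samples. NMRAL2P, a pseudogene outside the list, ran from 5.60 through 5.96 to 6.53 with curcumin and from 3.19 through 3.42 to 4.24 without, and with a control mean of 3.58 it rose by at least 2.02. The pentose phosphate and NADPH genes of the list that were tested stayed under the fold minimum: ME1 differed by 0.48, PGD by 0.39 and TALDO1 by 0.38, each past the adjusted p of 0.05, and TKT by 0.20 (adjusted p = 0.22). With the mean of probe sets PGD was at 0.07 (adjusted p = 0.57) and TKT at 0.45 (adjusted p = 0.014). CBR1 (0.32), UGDH (0.17) and CBR3 (-0.15) were not called, and CBR3 is a carbonyl reductase like CBR1. EPHX1 and OSGIN1 had both group means under 4 and give no fold. ABCC2, a drug carrier, was too low to be tested, and FTH1 is not analysed here.

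**Figure D2:**
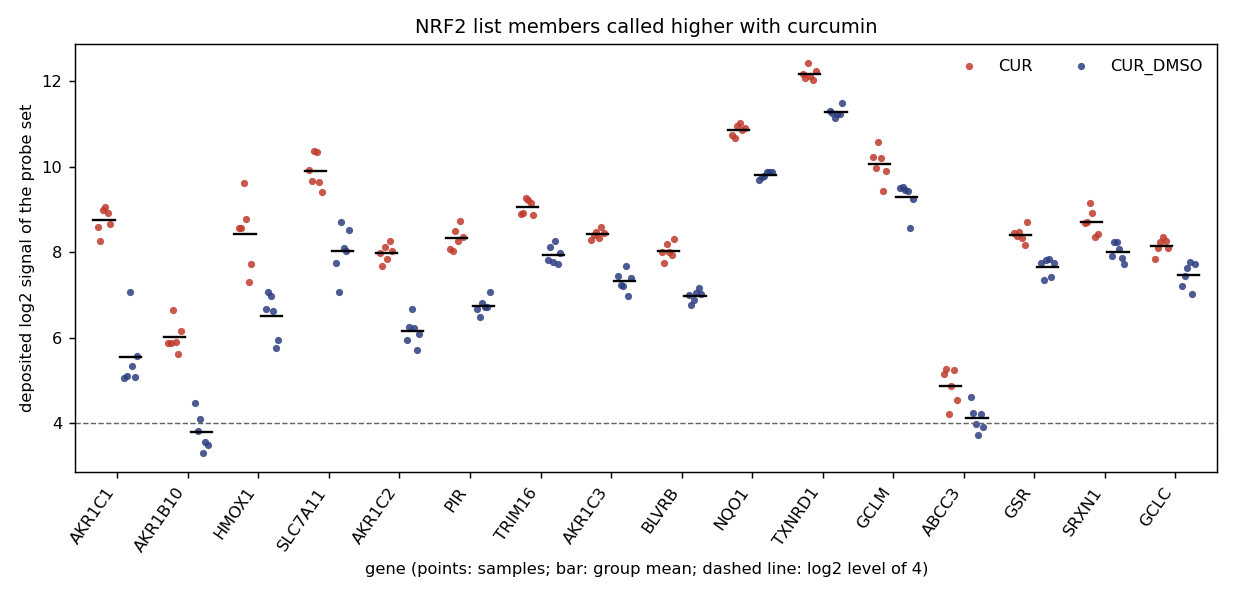
Deposited log2 signals of the 16 NRF2 list members called higher, with 6 CUR samples (red, left) and 6 CUR_DMSO samples (blue, right) per gene. Bars are group means and the dashed line is the level of 4. Groups overlap for GCLM and ABCC3, and CUR_DMSO replicate 3 lies at 7.08 for AKR1C1, above the other controls.

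PPP1R15A, which recruits a phosphatase to restart translation, ran from 4.90 through 5.32 to 5.55 in CUR samples and from 4.0 through 4.51 to 4.63 in CUR_DMSO samples. It rose by 0.83 ± 0.14 (adjusted p = 0.0054). Of 26 tested members of the ATF4 list 3 were called higher and 0 lower, where 1.27% and 0.931% of all genes were. The block gave 4 and 2. Without CUR replicate 5 there were 3 and 2, and without CUR replicate 3, 4 or 6 or CUR_DMSO replicate 1 there was 1 call. The other members called were ASNS, which makes asparagine, at 1.28 ± 0.34 (adjusted p = 0.049), and ATF3, a stress-induced repressor, at 0.88 ± 0.19 (adjusted p = 0.022). ASNS lost its call when CUR replicate 1, 3, 4 or 6 or CUR_DMSO replicate 1, 2, 3 or 4 was left out, with an adjusted p of 0.056 to 0.11. ATF3 lost it without CUR replicate 3, 4 or 6 or CUR_DMSO replicate 1, at 0.050 to 0.056, and under quantile normalization at 0.052. With the mean of probe sets ATF3 was at 0.27 (adjusted p = 0.097) and ASNS at 0.60 (adjusted p = 0.11), and neither was called. Among amino acid carriers and tRNA synthetases 2 of 21 were called higher and 0 lower, and the block gave 3 and 0. The 2 were SLC7A11 and its partner chain SLC3A2, at 0.83 ± 0.19 (adjusted p = 0.028). The SLC3A2 call was lost without CUR replicate 1, 3, 4 or 6 or CUR_DMSO replicate 1, 2 or 4, at 0.056 to 0.069.

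In the autophagy and lysosome list 3 of 23 members were called higher and 0 lower, where 1.27% and 0.931% of all genes were. SQSTM1, the autophagy receptor p62, which also binds KEAP1, ran from 10.39 through 10.70 to 10.98 in CUR samples and from 9.54 through 9.74 to 9.85 in CUR_DMSO samples. The groups did not overlap, and the rise was 0.99 ± 0.10 (adjusted p = 1.1e-04), against 0.37 with the mean of its 7 probe sets, which ended the call. GLA, a lysosomal galactosidase, rose by 0.80 ± 0.16 (adjusted p = 0.013), with the lowest CUR sample (8.53) just under the highest CUR_DMSO sample (8.55). CTSD, a lysosomal protease, was called at 0.67 ± 0.16 (adjusted p = 0.029) and lost that call without CUR replicate 1, 3, 4 or 6 or CUR_DMSO replicate 1, 4 or 5, at 0.038 to 0.066, and under quantile normalization. The proteasome list had 0 of 30 members called by limma, with 13 higher and 0 lower at an unadjusted p under 0.05 (15.0% and 9.10% of all genes) and 0 called with the replicate block. Its median was 0.20.

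HBEGF, a ligand of the EGF receptor, ran from 9.14 through 9.71 to 9.75 in CUR samples and from 8.48 through 8.78 to 9.05 in CUR_DMSO samples. It rose by 0.80 ± 0.13 (adjusted p = 0.0050), and NRG1, a ligand of the related ERBB receptors, rose by 1.66 ± 0.34 (adjusted p = 0.017), with CUR_DMSO replicate 5 (3.68) below the other controls (5.61 to 6.12). HBEGF, SPRY4 and DUSP5 were the 3 of 16 members of the ERK feedback list called higher, with 0 lower (1.27% and 0.931% of all genes). SPRY4, which dampens RAS signalling, rose by 0.89 ± 0.18 (adjusted p = 0.017). PTPRR, a phosphatase that acts on ERK, was not in that list and ran from 6.80 through 6.97 to 7.44 with curcumin and from 5.32 through 5.66 to 6.23 without, a rise of 1.32 ± 0.17 (adjusted p = 0.0015). CCND1, the cyclin D1 of the G1 phase, rose by 0.86 ± 0.17 (adjusted p = 0.011), although CUR replicate 5 (9.85) lay inside the control range of 9.38 to 10.03. With the mean of each gene's probe sets HBEGF was at 0.34, NRG1 at 0.34, SPRY4 at 0.45 and CCND1 at 0.89 (adjusted p = 0.062), and none of these 4 was called.

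ANKRD1, a target of the Hippo pathway coactivator YAP, ran from 6.39 through 7.13 to 7.88 in CUR samples and from 5.08 through 5.65 to 6.06 in CUR_DMSO samples. It rose by 1.50 ± 0.22 (adjusted p = 0.0031), and AMOTL2, an angiomotin that restrains YAP, rose by 0.70 ± 0.12 (adjusted p = 0.0058). These were 2 of 17 YAP/TEAD list members called higher, with 0 lower, where 1.27% and 0.931% of all genes were. The replicate block gave 3 higher and 0 lower. CCN2, the best known target, averaged 11.18 ± 0.19 in CUR samples and 11.05 ± 0.32 in CUR_DMSO samples (SD, n = 6 each). SPP1, the secreted matrix ligand osteopontin, ran from 7.25 through 7.55 to 7.82 with curcumin and from 5.50 through 6.27 to 6.56 without, a rise of 1.42 ± 0.17 (adjusted p = 9.2e-04). The SPP1 value was 0.72 with the mean of its 2 probe sets. HDAC9, a class II histone deacetylase, rose by 1.52 ± 0.27 (adjusted p = 0.0067), and was at 0.48 with the mean of its 5 probe sets, which ended the call. KRTAP2-3, a keratin-associated protein gene, rose by 1.83 ± 0.37 (adjusted p = 0.016), from samples that overlapped (6.05 to 8.45 in CUR, 5.14 to 6.32 in CUR_DMSO).

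Other genes with groups that did not overlap included ELAPOR1, which takes part in endosome and lysosome traffic, at 1.40 ± 0.21 (adjusted p = 0.0032). TEX19, a gene mostly known from germ cells, rose by 1.35 ± 0.22 (adjusted p = 0.0054). NRCAM, a neuronal cell adhesion molecule, ran from 5.86 through 5.96 to 6.34 in CUR samples and from 4.75 through 4.89 to 5.14 in CUR_DMSO samples, a rise of 1.10 ± 0.10 (adjusted p = 6.1e-05). The antisense transcripts SP2-AS1 and DLGAP1-AS6 rose from control means under 4, by at least 0.78 and at least 0.67. With the mean of probe sets ELAPOR1 was at 0.62 and NRCAM at 0.63.

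In the NF-kB list 3 of 21 members were called higher and 0 lower, where 1.27% and 0.931% of all genes were, and the block gave 4 and 1. SOD2, the mitochondrial superoxide dismutase, ran from 6.73 through 6.88 to 6.98 in CUR samples and from 5.67 through 6.26 to 6.58 in CUR_DMSO samples. Its rise was 0.69 ± 0.15 (adjusted p = 0.020), but 0.56 (adjusted p = 0.019) without both libraries numbered 5 and 0.31 with the mean of its probe sets, which ended the call. TNFAIP3, the A20 brake on NF-kB, rose by 0.65 ± 0.14 (adjusted p = 0.019), and its call was lost without CUR_DMSO replicate 5 (adjusted p = 0.028, under the fold minimum) and under quantile normalization (0.56). NFKBIE, an inhibitor of NF-kB, was called at 0.60 ± 0.13 and lost the call without CUR replicate 2, 3 or 6 or CUR_DMSO replicate 2 or 4, at an adjusted p of 0.038 to 0.047 with values under the fold minimum, and under quantile normalization (0.50). CD274, the immune checkpoint ligand PD-L1, rose by 1.22 ± 0.25 (adjusted p = 0.017), with 6.82 to 8.62 in CUR samples and 6.39 to 7.13 in CUR_DMSO samples. IL7R, the interleukin-7 receptor chain, rose by 0.73 ± 0.13 (adjusted p = 0.0080), and was at 0.72 and not called with the mean of its 2 probe sets. PTGS2, the inducible cyclooxygenase, ran from 4.05 through 5.99 to 6.80 in CUR samples and from 6.22 through 6.85 to 7.19 in CUR_DMSO samples, and the difference of -0.99 ± 0.37 did not pass (adjusted p = 0.12) except with the replicate block (adjusted p = 0.023). CXCL8, the chemokine interleukin-8, differed by -0.34 ± 0.25 (adjusted p = 0.42), and IL6 had both means under 4. AIM2, a sensor of DNA in the cytoplasm, fell by 0.89 ± 0.14 (adjusted p = 0.0046), with 5.28 to 6.02 in CUR samples and 6.42 to 6.97 in CUR_DMSO samples.

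The p53 target list had 1 of 41 members called higher, PLK3, and 0 lower, where 1.27% and 0.931% of all genes were. Without CUR replicate 5 there were 7 called higher and 0 lower, where 313 and 274 of all 11496 genes were. Without CUR_DMSO replicate 5 there were 2 and 0 (122 and 119 of all genes). Leaving out both libraries numbered 5 gave 2 and 0 (210 and 256 of all genes). The replicate block gave 2 higher and 0 lower (2.15% and 1.75% of all genes). By limma 16 members had an unadjusted p under 0.05 upward and 1 downward, where 15.0% and 9.10% of all genes did. PLK3, a stress-responsive kinase, ran from 5.29 to 6.13 in CUR samples and from 3.99 to 5.17 in CUR_DMSO samples, a rise of 0.89 ± 0.19 (adjusted p = 0.020) that was 0.27 with the mean of its 3 probe sets, which ended the call. CDKN1A, the p21 inhibitor of cyclin-dependent kinases, ran from 8.63 through 8.93 to 9.06 with curcumin and from 8.12 through 8.38 to 8.61 without. Its groups did not overlap, and the difference of 0.51 ± 0.10 (adjusted p = 0.012) lay under the fold minimum. With the mean of its probe sets CDKN1A was at 0.29 (adjusted p = 0.060). MDM2, which marks p53 for breakdown, differed by 0.44 ± 0.13 (adjusted p = 0.071), GDF15 by 0.55 ± 0.16 (adjusted p = 0.060, and 0.024 without CUR_DMSO replicate 5, at 0.66) and GADD45A by 0.35 ± 0.12 (adjusted p = 0.096). The direction of these 3 was up in all 6 numbered pairs, by 0.05 to 0.76, and the share of all genes that did so was not counted. BCL2L1, which holds off apoptosis, was called at 0.63 ± 0.10 (adjusted p = 0.0053), and lost the call without CUR replicate 4 (adjusted p = 0.013), under quantile normalization (0.56) and with the mean of its probe sets (0.31).

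MCM7, a subunit of the replicative helicase, ran from 7.49 through 8.05 to 8.08 in CUR samples and from 8.58 through 8.83 to 8.96 in CUR_DMSO samples. It fell by 0.85 ± 0.11 (adjusted p = 0.0016) without overlap. MCM7 was the 1 member called of the 39 of the G1/S list, which does not hold CCND1, where 0.931% of all genes were called lower and 1.27% higher. Without CUR replicate 5 there were 2 called higher and 1 lower, as with the replicate block, and without CUR_DMSO replicate 2 there was 1 of each. In the G2/M list 1 of 47 members was called lower and 0 higher, where 0.931% and 1.27% of all genes were. It had 14 lower and 0 higher at an unadjusted p under 0.05 (9.10% and 15.0% of all genes) and a median of -0.19. MKI67, the proliferation marker, averaged 8.14 ± 0.16 in CUR samples and 8.60 ± 0.17 in CUR_DMSO samples (SD, n = 6 each), a difference of -0.46 ± 0.10 (adjusted p = 0.021) under the fold minimum. With the mean of its probe sets MKI67 was at -0.24 (adjusted p = 0.52). CCNB1, the mitotic cyclin, differed by -0.20 ± 0.13 (adjusted p = 0.36). The called member, TROAP, a spindle protein, was at -0.59 ± 0.10, and 5 single libraries, the mean of probe sets, an equal median per array and the fit of all 17 groups each took it under the minimum. Those libraries were CUR replicates 1 and 6 and CUR_DMSO replicates 3, 4 and 6, with an adjusted p of 0.012 to 0.019. Among 11 histone genes 2 were called lower and 0 higher, where 0.931% and 1.27% of all genes were. There were 3 lower with the replicate block and 4 without CUR_DMSO replicate 5. H2AC6, a histone H2A gene, ran from 6.59 through 6.80 to 7.41 with curcumin and from 7.88 through 8.28 to 8.54 without, a fall of 1.31 ± 0.16 on the log2 scale (adjusted p = 9.2e-04). H2BC5, an H2B gene, fell by 0.71 ± 0.13 (adjusted p = 0.0092) and was at -0.52 with the mean of its probe sets.

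LRRC17, a secreted leucine-rich repeat protein that restrains osteoclast formation, ran from 4.46 through 5.25 to 5.66 in CUR samples and from 6.93 through 7.02 to 7.75 in CUR_DMSO samples. It fell by 2.06 ± 0.20 (adjusted p = 8.8e-05), and by 1.18 with the mean of its 2 probe sets. SCG2, the secretory granule protein secretogranin II, ran from 5.28 through 5.64 to 7.0 with curcumin and from 7.10 through 7.86 to 8.04 without, a fall of 1.80 ± 0.29 (adjusted p = 0.0048). VCAN, the matrix proteoglycan versican, ran from 6.80 through 7.49 to 8.57 with curcumin and from 8.62 through 9.01 to 9.79 without. Its highest CUR sample lay just below its lowest control, and the fall was 1.51 ± 0.28 (adjusted p = 0.0085). MAP2K6, a kinase that activates p38, ran from 4.13 through 4.26 to 4.40 in CUR samples, a narrow range near background, and from 4.89 through 5.72 to 6.24 in CUR_DMSO samples. It fell by 1.46 ± 0.18 (adjusted p = 0.0010), and by 0.76 with the mean of its 2 probe sets. GNG2, a G protein gamma subunit, fell by 1.37 ± 0.21 (adjusted p = 0.0040) and was at -0.43 with the mean of its 4 probe sets, which ended the call. PDE7B, a phosphodiesterase of cyclic AMP, fell by 1.37 ± 0.31 (adjusted p = 0.025), a call lost without CUR replicate 1, CUR_DMSO replicate 1 or CUR_DMSO replicate 4, at 0.054 to 0.060.

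HHIP, which binds and blocks hedgehog ligands, ran from 7.76 through 8.04 to 8.30 in CUR samples and from 8.66 through 9.04 to 9.21 in CUR_DMSO samples. It fell by 0.93 ± 0.12 (adjusted p = 0.0015), and SFRP1, a secreted antagonist of Wnt, fell by 0.78 ± 0.13 (adjusted p = 0.0048). FST, which binds activin, fell by 0.85 ± 0.15 (adjusted p = 0.0080), with 7.15 to 8.14 in CUR samples and 8.18 to 8.71 in CUR_DMSO samples. SEMA3A, a repulsive guidance cue, fell by 1.04 ± 0.19 (adjusted p = 0.0088), and CUR replicate 4 (3.43) lay below the other CUR samples (4.11 to 4.41). NTNG1, a membrane-tethered netrin, fell by 1.01 ± 0.15, and TENM4, a teneurin of the cell surface, by 1.02 ± 0.16. ENPP1, which makes pyrophosphate outside the cell, fell by 0.98 ± 0.18 (adjusted p = 0.0080). SHROOM2, which shapes the actin network, fell by 1.16 ± 0.17 and CADPS2, which primes secretory vesicles, by 0.99 ± 0.16. MPZL2, an adhesion molecule, fell by 0.97 ± 0.15. With the mean of probe sets SFRP1 was at -0.50, SEMA3A at -0.44, NTNG1 at -0.36 and MPZL2 at -0.71 (adjusted p = 0.071), and none of these 4 was called.

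**Figure D3:**
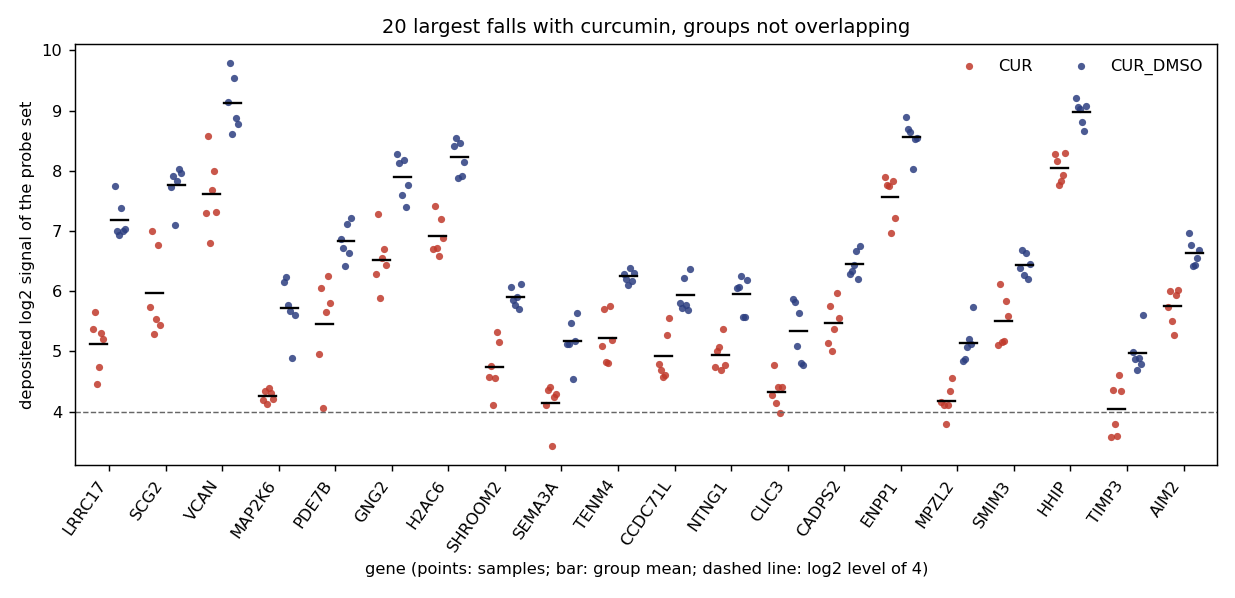
Deposited log2 signals of the 20 genes with the largest falls among called genes whose groups did not overlap, with 6 CUR samples (red, left) and 6 CUR_DMSO samples (blue, right) per gene. Bars are group means and the dashed line is the level of 4. MAP2K6 lies between 4.13 and 4.40 in CUR samples, close to that level.

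The collagen and matrix list had the lowest median of the lists examined, at -0.40. It had 2 of 27 members called lower and 0 higher, where 0.931% and 1.27% of all genes were. By limma 15 members had an unadjusted p under 0.05 downward and 0 upward, where 9.10% and 15.0% of all genes did. With the replicate block 5 were called, without both libraries numbered 5 there were 8, without CUR replicate 5 there were 7, and without CUR replicate 2 there were 4. Over all 11496 genes these fits called 201, 256, 274 and 107 lower, in the same order. TNC, the matrix glycoprotein tenascin C, ran from 5.38 through 5.58 to 6.07 in CUR samples and from 6.06 through 6.26 to 6.54 in CUR_DMSO samples, a fall of 0.65 ± 0.12 (adjusted p = 0.0086). Its value was -0.22 with the mean of its 3 probe sets, which ended the call. COL8A1, a short-chain collagen, averaged 3.18 in CUR samples, under 4, and 4.22 in CUR_DMSO samples, and it fell by 0.22 or more against that level (adjusted p = 0.0064 for the measured values). COL4A5, a basement membrane collagen, fell by 0.79 ± 0.15 (adjusted p = 0.010), and was at -0.42 with the mean of its 2 probe sets, which ended the call. COL1A1, a chain of type I collagen, ran from 3.77 through 4.42 to 5.58 with curcumin and from 4.23 through 5.99 to 6.81 without, and it was lower in each numbered pair. Its difference of -1.08 ± 0.43 did not pass (adjusted p = 0.15), but with the replicate block it did (adjusted p = 0.0063). FN1, fibronectin, differed by -0.43 ± 0.17 (adjusted p = 0.14).

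Among matrix proteases and their inhibitors 2 of 12 list members were called lower and 0 higher, where 0.931% and 1.27% of all genes were. With the replicate block 3 were called lower. MMP16, a membrane-bound matrix metalloproteinase, ran from 7.18 through 7.50 to 7.78 in CUR samples and from 7.90 through 8.27 to 8.56 in CUR_DMSO samples. It fell by 0.72 ± 0.13 (adjusted p = 0.0088), and was at -0.25 with the mean of its 5 probe sets, which ended the call. TIMP3, an inhibitor of these proteases, fell by 0.93 ± 0.20 (adjusted p = 0.020), a call lost without CUR replicate 3 or CUR replicate 4 (adjusted p = 0.050 and 0.053) and with the mean of its probe sets (-0.61). MMP1, the interstitial collagenase, differed by -0.77 ± 0.33 (adjusted p = 0.17) and was called with the replicate block (adjusted p = 0.0036). PLAU, urokinase, differed by -0.26 ± 0.08 (adjusted p = 0.077). CEMIP, which breaks down hyaluronan of the matrix, was called at -1.47 ± 0.33 (adjusted p = 0.025), a call lost without CUR replicate 1, 4 or 6 or CUR_DMSO replicate 1, 2 or 4, at 0.050 to 0.059, and it was at -0.81 with the mean of its 2 probe sets. LTBP1, which stores latent TGF-beta in the matrix, fell by 0.77 ± 0.17 (adjusted p = 0.021), a call lost without CUR replicate 6 or CUR_DMSO replicate 4 (adjusted p = 0.050 and 0.052). It was the 1 of 27 TGF-beta list members called, where 0.931% of all genes were called lower and 1.27% higher. The replicate block gave 2 members lower and 0 higher.

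Some calls of the remaining lists lay close to the threshold. GCLM, the regulatory subunit of glutamate-cysteine ligase, ran from 9.44 through 10.09 to 10.57 in CUR samples and from 8.57 through 9.43 to 9.52 in CUR_DMSO samples. It was higher in all 6 numbered pairs, by 0.46 to 1.12, and was called at 0.77 ± 0.19 (adjusted p = 0.036). The GCLM call was lost without CUR replicate 1, 2, 3, 4 or 6 or CUR_DMSO replicate 1, 4 or 6, at 0.058 to 0.084. It was also lost with the mean of its probe sets (0.76, adjusted p = 0.051). ABCC3, a carrier of glutathione and bile acid conjugates, at 0.76 ± 0.19 (adjusted p = 0.038), was lost without CUR replicate 1, 2, 4 or 6 or CUR_DMSO replicate 2, 3, 4 or 6, at 0.051 to 0.088, and was at 0.30 with the mean of its 6 probe sets. DUSP5, a nuclear phosphatase of ERK, was called at 0.88 ± 0.24 (adjusted p = 0.047), and the call stood only without CUR replicate 2 or 5 or CUR_DMSO replicate 5 among the 12 fits that left out a library, with an adjusted p up to 0.10. STARD4, a cholesterol carrier, was called at -0.69 ± 0.18 (adjusted p = 0.048), and the call stood without CUR replicate 5 or CUR_DMSO replicate 2 among those 12 fits, with an adjusted p up to 0.11. STARD4 was the 1 of 21 cholesterol list members called, where 0.931% of all genes were called lower and 1.27% higher. By limma 11 members of the cholesterol list were lower and 0 higher at an unadjusted p under 0.05 (9.10% and 15.0% of all genes). The median of that list was -0.34, and HMGCS1, an early enzyme of that pathway, differed by -0.34 ± 0.12 (adjusted p = 0.10). ANKRD37, a hypoxia-responsive gene and the 1 of 28 members of its list called, was at -0.83 ± 0.22 (adjusted p = 0.048). Among those 12 fits the call stood only without CUR replicate 5, and it was lost with the mean of its probe sets (-0.40, adjusted p = 0.081). With all libraries 0.931% of all genes were called lower and 1.27% higher. In the fit without CUR replicate 5 there were 4 members of the hypoxia and glycolysis list called lower and 0 higher. That fit called 274 of all 11496 genes lower and 313 higher. The replicate block gave 2 members lower and 0 higher, where 1.75% and 2.15% of all genes were. OAS1, an interferon-induced synthetase, at -0.65 ± 0.15 (adjusted p = 0.025), lost the call without CUR replicate 1 or 3 or CUR_DMSO replicate 1 or 4, at 0.051 to 0.064.

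No member was called in 15 of the 36 lists, where 2.20% of all genes were called, so short lists may hold none. Among them were heat shock, unfolded protein response, proteasome, metallothioneins, respiratory chain and DNA repair. Over the 272 genes of these lists limma gave 38 higher and 32 lower at an unadjusted p under 0.05, where 15.0% and 9.10% of all genes were, and the replicate block called 3 higher and 4 lower. Without CUR replicate 5 some of these lists had calls, up to 5 in ribosome biogenesis and MYC targets. The endoplasmic reticulum chaperones had 10 of 23 lower and 0 higher at an unadjusted p under 0.05 (9.10% and 15.0% of all genes). MANF, a secreted protein of that compartment, ran from 8.68 through 8.79 to 8.90 in CUR samples and from 9.03 through 9.34 to 9.43 in CUR_DMSO samples. Its difference of -0.52 ± 0.08 (adjusted p = 0.0052) lay under the fold minimum, as did CRELD2, another member of that response, at -0.54 ± 0.09 (adjusted p = 0.0054), and HSPA5, the chaperone BiP, at -0.33 ± 0.09 (adjusted p = 0.050). CRELD2 was called lower without CUR_DMSO replicate 5 and without both libraries numbered 5 (-0.63, adjusted p = 0.0011). In that last fit 2 members of the list were called lower and 0 higher, where 256 and 210 of all 11496 genes were. DNAJB1, a heat shock co-chaperone, differed by 0.28 ± 0.19 (adjusted p = 0.40), with CUR replicate 5 (7.29) below the other CUR samples (8.19 or more). MT2A, a metallothionein, averaged 12.32 ± 0.11 in CUR samples and 12.36 ± 0.12 in CUR_DMSO samples (SD, n = 6 each). TUBA1A, an alpha tubulin, differed by -0.37 ± 0.08 (adjusted p = 0.027). TXNIP, which binds thioredoxin and answers to glucose, ran from 6.29 through 7.90 to 9.56 with curcumin and from 8.19 through 9.46 to 10.45 without. All 6 pairs were lower, by 0.84 to 1.90, and the difference of -1.42 ± 0.45 was not called (adjusted p = 0.080). TXNIP was called lower with the replicate block (adjusted p = 9.3e-04), with the mean of its probe sets (-1.59, adjusted p = 0.040), in the fit of all 17 groups (adjusted p = 0.037), without CUR replicate 5 (-1.74, adjusted p = 0.014), without CUR_DMSO replicate 3 (-1.65, adjusted p = 0.049) and without both libraries numbered 5 (-1.52, adjusted p = 0.017).

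**Figure D4:**
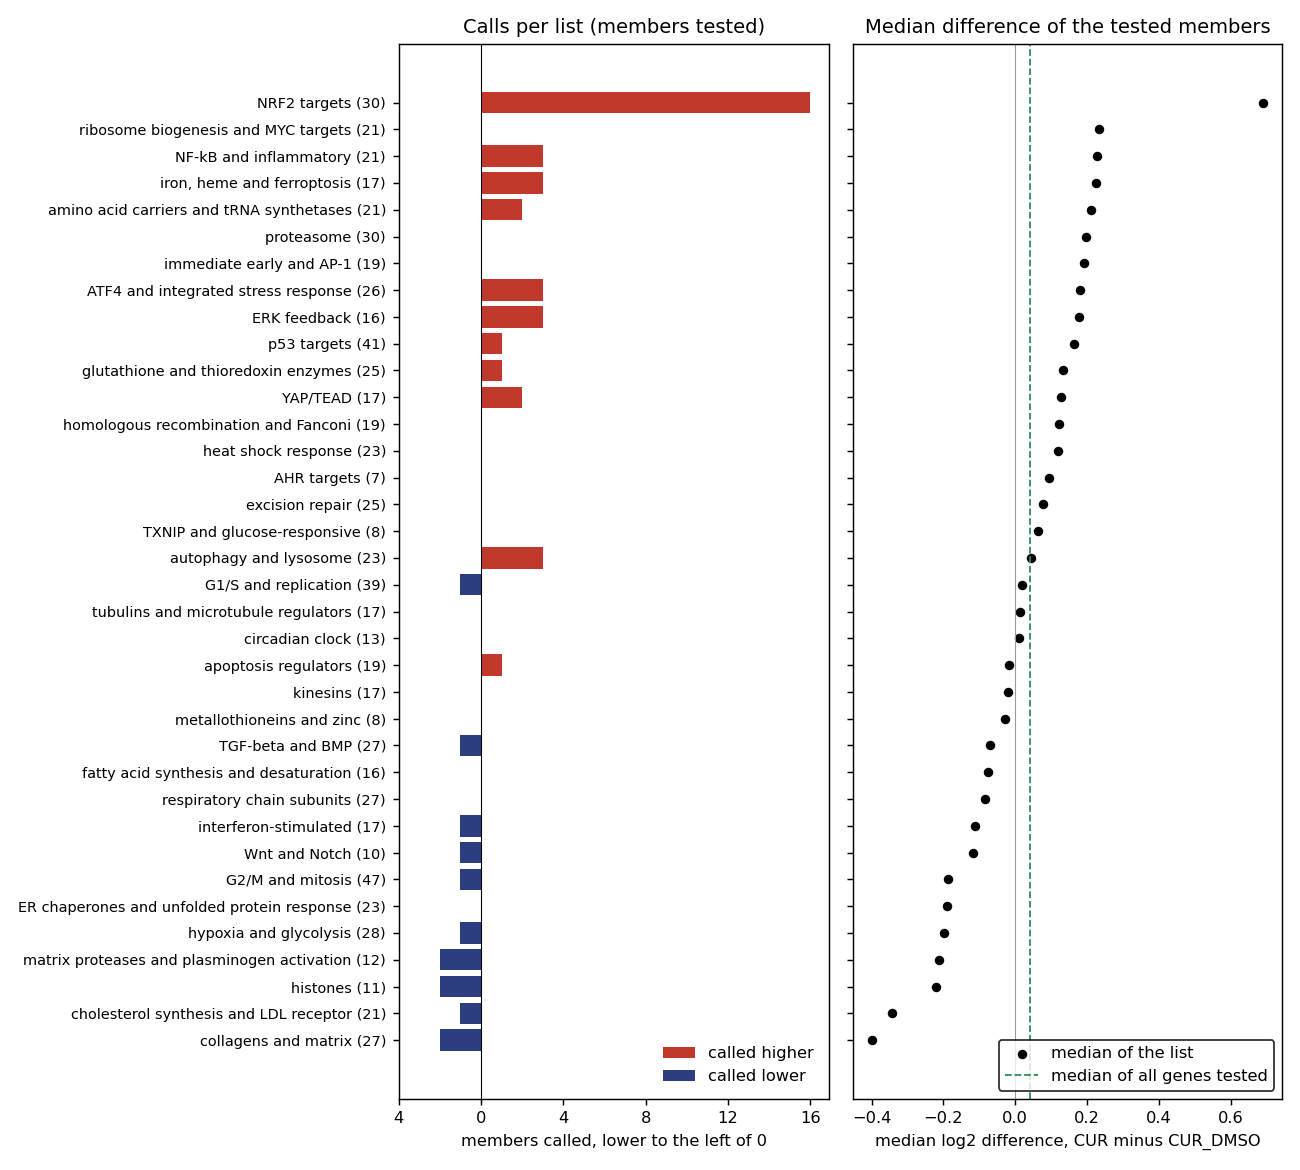
For each of 36 gene lists, with the number of members tested in parentheses, the left panel gives the members called higher (red, right of 0) and lower (blue, left of 0), and the right panel the median log2 difference, CUR minus CUR_DMSO, of all tested members. The dashed line is the median of all genes tested (0.04). The NRF2 list has 16 calls and a median of 0.69, and the collagen and matrix list the lowest median (-0.40).

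The curcumin response was set against those to 2 other phenolic compounds of the series. tBHQ (200 µM), a hydroquinone used as an activator of NRF2, was set against the samples labelled DMSO pooled, a tie inferred from the titles, and QUE (30 µM), read as the flavonol quercetin, against its own DMSO samples. Doses differed, and each compound was compared with controls of its own set. The differences of differences came from 1 limma fit of the 6 groups of 6 samples. CUR minus tBHQ was called for 753 genes (6.55%), 367 positive (3.19%) and 386 negative (3.36%), and 1135 with the replicate block. CUR minus QUE was called for 1271 (11.1%), 708 positive (6.16%) and 563 negative (4.90%), and for 1853 without QUE replicate 2. Of the 253 genes called with curcumin 70 were among the first and 65 among the second.

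The NRF2 list was less raised by curcumin than by tBHQ. Its median difference from control was 0.69 with CUR, 1.32 with tBHQ and 0.39 with QUE. CUR minus tBHQ was called negative for 13 of 30 members and positive for 0, where 3.36% and 3.19% of all genes were. AKR1C1 rose by 3.20 with CUR and by 6.22 with tBHQ, a difference of -3.01 ± 0.52 (adjusted p = 1.6e-04), and HMOX1 rose by 1.91 and 4.49, a difference of -2.58 ± 0.47 (adjusted p = 3.4e-04). AKR1C2 (-2.65), AKR1C3 (-1.47), GCLC (-1.42), TRIM16 (-1.01), SRXN1 (-0.93) and PIR (-0.77) were also called. NRCAM, the adhesion molecule, rose by 1.10 with CUR and 3.65 with tBHQ, a difference of -2.55 ± 0.26. NQO1 rose by 1.05 with CUR and 1.31 with tBHQ, and the difference of -0.26 ± 0.11 was not called (adjusted p = 0.13). SLC7A11 (-1.04 ± 0.49, adjusted p = 0.18) and TXNRD1 (-0.31 ± 0.16, adjusted p = 0.24) were not called either, which does not show that they acted alike.

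For some genes the differences from control had opposite signs. The test given is of CUR minus tBHQ, and the values with tBHQ alone are given without a test. KRTAP2-3 rose by 1.83 with CUR and was at -2.66 with tBHQ, a difference of 4.49 ± 0.63. ANKRD1 rose by 1.50 with CUR and was at -1.53 with tBHQ, a difference of 3.03 ± 0.38. In the YAP/TEAD list 6 of 17 members were called with a positive CUR minus tBHQ and 0 with a negative one (3.19% and 3.36% of all genes). CD274 rose by 1.22 with CUR against -0.99 with tBHQ (difference 2.21 ± 0.62, adjusted p = 0.018), and IL7R by 0.73 against -1.35 (difference 2.08 ± 0.26). HHIP was lower with both, by more with tBHQ (-1.63), a difference of 0.71 ± 0.15 (adjusted p = 0.0024).

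In the NRF2 list 5 of 30 members had a positive CUR minus QUE and 2 a negative one, where 6.16% and 4.90% of all genes did. The positive ones were PIR, TRIM16, NQO1, BLVRB and CBR3. NQO1 rose by 1.05 with CUR and was at 0.17 with QUE, a difference of 0.88 (adjusted p = 4.5e-06), TRIM16 rose by 1.11 against 0.09, PIR by 1.58 against 0.35 and BLVRB by 1.05 against 0.37. CBR3 was at -0.15 with CUR and -0.89 with QUE, a difference of 0.73 ± 0.25 (adjusted p = 0.031). The negative ones were UGDH, at 0.17 with CUR and 0.94 with QUE (-0.76 ± 0.24, adjusted p = 0.022), and TRIM16L, at -0.09 and 0.68 (-0.78 ± 0.25, adjusted p = 0.023). AKR1C1 rose by 3.20 against 2.00, and the difference of 1.20 ± 0.52 was not called (adjusted p = 0.096), though without CUR_DMSO replicate 3 it was (1.51, adjusted p = 0.024). HMOX1 (0.40 ± 0.47, adjusted p = 0.59) and SLC7A11 (0.65 ± 0.49, adjusted p = 0.37) were not called. FST, the activin binder, was at -0.85 with CUR and 1.63 with QUE, a difference of -2.48 ± 0.36. HHIP was at -0.93 and 0.90, a difference of -1.82 ± 0.15, and COL4A5 at -0.79 and 0.45, a difference of -1.24 (adjusted p = 0.0041). SCG2 was at -1.80 and -0.35, a difference of -1.45 (adjusted p = 0.026) that lost its call without CUR replicate 3 (adjusted p = 0.052) or QUE_DMSO replicate 1 (adjusted p = 0.055). OR51B4, an olfactory receptor gene with a CUR_DMSO mean under 4, rose by at least 0.69 with CUR and was at -0.76 with QUE, a difference of 1.61 on the measured values. In the G2/M list 23 of 47 members had a positive CUR minus QUE and 0 a negative one, with medians of -0.19 with CUR and -1.06 with QUE. In the p53 list 15 of 41 had a negative difference and 0 a positive one, with medians of 0.16 and 0.63. In the unfolded protein response list 14 of 23 had a negative difference and 0 a positive one, with medians of -0.19 and 0.30.

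**Figure D5:**
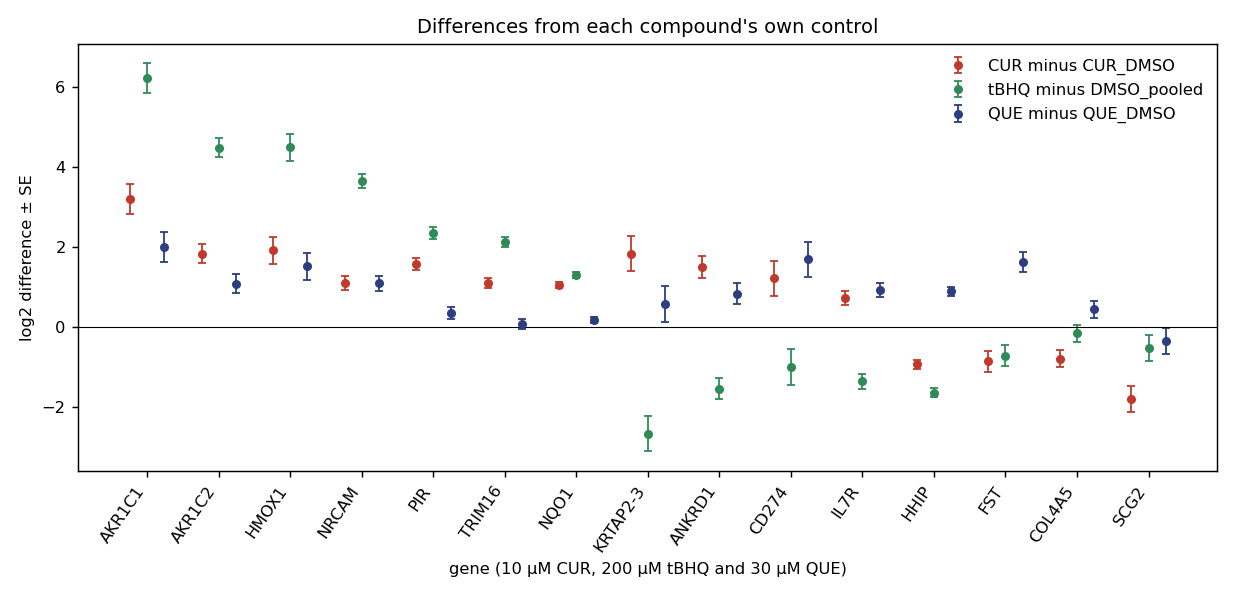
Log2 differences ± standard error from the fit of 6 groups, for CUR (red, left), tBHQ (green, middle) and QUE (blue, right), each minus its own control, with 6 samples a group. KRTAP2-3, ANKRD1, CD274 and IL7R lie above 0 with CUR and below 0 with tBHQ, and HHIP and FST lie below 0 with CUR and above 0 with QUE.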

How the data were processed

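Total RNA of HT1080 cells was labelled with biotin and hybridised to Affymetrix arrays, 1 array a sample. The deposited log2 values were made by the authors with GCRMA in Partek, per the submitters' processing notes, with versions not given in the sources used here, and the compound sets look normalized apart. Of 54715 probe sets 40914 had 1 gene name in the platform annotation, giving 19774 genes, each represented by its probe set with the highest mean. The 11496 genes with a mean of at least 4 in at least 1 of 17 groups were tested with lmFit and eBayes of limma 3.58.1 (R 4.3.3), with Benjamini-Hochberg adjustment and a 1.5-fold minimum. Tables and plots used Python 3.11.15, pandas 2.3.3, numpy 2.4.6 and matplotlib 3.10.9. The procedure was tested on simulated data.

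The samples and gene lists were chosen with earlier results of these data known. Genes were named as the 20 largest called rises and 20 largest called falls without overlap, called members of each list, a fixed panel, and the largest called differences from tBHQ and QUE, as far as space allowed. Pairing by the labels' numbers was checked: deviations of same-numbered samples correlated at 0.292 to 0.684, and 5 of 6 CUR samples correlated best with their own number. Alternatives were the filter, the probe set rule, scaling, variance model, block, fold minimum and leaving out libraries.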

Additional observations from a re-analysis of the deposited data

Results flagged for a closer look

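In the values described above, 22 of 224 groups of 6 samples had an extreme sample set apart from the others by Dixon's criterion, where chance flags about 1 in 20 groups. Of the gene values 9 fell in CUR_DMSO replicate 5, 5 in CUR replicate 5 and 6 in other libraries. The distance of a library from the others of its group was also extreme, at 0.43 for CUR replicate 5 and 0.47 for CUR_DMSO replicate 5.

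CUR replicate 5 was the lowest CUR sample for TNFAIP3 (5.89), CCND1 (9.85), MCM7 (7.49) and DNAJB1 (7.29), and the highest for ANKRD37 (9.0). CUR_DMSO replicate 5 was the lowest control for GCLM (8.57), AIFM2 (5.33), PLK3 (3.99), NRG1 (3.68), ELAPOR1 (3.92), SP2-AS1 (2.98), COL8A1 (3.62) and CCNB1 (9.81), and the highest for ANKRD37 (9.31). In other libraries, CUR replicate 4 was lowest for SEMA3A (3.43) and CUR replicate 6 highest for HMGCS1 (7.5). CUR_DMSO replicate 3 was highest for AKR1C1 (7.08) and lowest for SCG2 (7.1), CUR_DMSO replicate 2 was highest for AMOTL2 (9.36) and CUR_DMSO replicate 6 highest for TIMP3 (5.61).

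The response to CUR differed from that to tBHQ by the limma test of the difference for 14 of the genes whose difference is given above. CUR minus tBHQ was -3.01 for AKR1C1, -2.65 for AKR1C2, -1.47 for AKR1C3, -2.58 for HMOX1, -0.77 for PIR, -1.01 for TRIM16, -1.42 for GCLC, -0.93 for SRXN1 and -2.55 for NRCAM. It was 4.49 for KRTAP2-3, 3.03 for ANKRD1, 2.21 for CD274, 2.08 for IL7R and 0.71 for HHIP. The response to CUR differed from that to QUE for 9 of the named genes checked here, and also for CBR3, UGDH and TRIM16L, given above. CUR minus QUE was 1.24 for PIR, 1.02 for TRIM16, 0.88 for NQO1, 0.68 for BLVRB and 1.61 for OR51B4. It was -2.48 for FST, -1.82 for HHIP, -1.24 for COL4A5 and -1.45 for SCG2.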

How the results depend on the processing

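Of the 253 calls of CUR against CUR_DMSO, the count was 161 (99 higher, 62 lower) with the mean of probe sets, 389 with every probe set on its own, 383 in 1 fit of all 17 groups, 588 with no fold minimum and 58 with a 2-fold minimum. Leaving out single libraries gave 155 (without CUR replicate 3) to 587 (without CUR replicate 5), with 168 without CUR_DMSO replicate 4. Without both libraries numbered 5, chosen after seeing the data, there were 466, and 524 with the replicate block added. With the replicate block, for samples that pair by number, there were 448, and beside the changes given above it ended no call of CUR against CUR_DMSO. The other settings gave 222 to 290 calls. CUR minus tBHQ moved from 753 to 1135 with the replicate block, 1315 with every probe set on its own, 1294 with no fold minimum and 260 with a 2-fold minimum, and to 633 to 939 without single libraries. CUR minus QUE moved from 1271 to 2366, 2385 and 361 under those last 3 settings, and to 1042 to 1853 without single libraries. Of 89 named genes called, 71 were called in all 12 fits that left out a library, 87 without both libraries numbered 5 and 81 under quantile normalization. No named gene of CUR against CUR_DMSO changed sign under these settings. The cause of these shifts was not tested, apart from the genes and thresholds the settings themselves change. Scaling moved the median of all genes from 0.042 to 0.048 (equal medians) and 0.002 (quantile). Genes with a mean under 4 give bounds only.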

Other observations

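A few further genes passed the same test but fall outside the naming rule and were picked after their values were seen. HMGA2, an architectural chromatin protein, averaged 10.20 in CUR samples and 9.52 in CUR_DMSO samples (adjusted p = 0.0032), and BDNF, a neurotrophin, averaged 8.02 in CUR samples and 7.37 in CUR_DMSO samples (adjusted p = 0.0040). NEDD4L, a ubiquitin ligase, rose by 0.70 and ACSL1, which activates long-chain fatty acids, by 0.75 (adjusted p = 0.0028 for both). CTDSP1, a small phosphatase of RNA polymerase II, averaged 5.08 in CUR samples and 5.94 in CUR_DMSO samples (adjusted p = 0.0042). For each of these 5 genes the groups did not overlap. With the mean of probe sets HMGA2 was at 0.24, BDNF at 0.51 and NEDD4L at 0.41, and these 3 were then not called.

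Some falls that the main comparison did not call were called with the replicate block and under some other settings. ARG2, the mitochondrial arginase, averaged 6.33 in CUR samples and 7.64 in CUR_DMSO samples and was lower in all 6 pairs (adjusted p = 0.13, and 0.0012 with the replicate block). GALNT15, a glycosyltransferase, averaged 3.98 in CUR samples, under 4, and 5.84 in CUR_DMSO samples, with an adjusted p of 0.055, and 0.0083 with the replicate block. Without the block both genes were also called in the fit of all 17 groups, without CUR replicate 5 and without both libraries numbered 5. In that last fit the adjusted p was 0.012 for ARG2 and 0.0041 for GALNT15.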
